A study of Mus musculus with 6 samples.

Results

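Expression of 4 genes of the mucous gland cells of the gastric antrum, Tff2, Muc6, Gkn3 and A4gnt, was followed at the pylorus of mouse embryos that carry knockout or wildtype labels for Nkx3-2 (Bapx1). The members were picked by gene symbol, with earlier knockout against wildtype values of these arrays known. Of these 4 genes, 3 had a named probe, with 1 probe each, among 18507 symbols on the array. All 3 were among the 16764 genes tested. A4gnt had no probe that the annotation used here names, so it has no value below. Because the label contrast helped to choose the members, their knockout against wildtype differences are given as a description, with no test.

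The antrum is lined by glands whose deep mucous cells secrete a viscous mucin together with small protective peptides. Muc6 encodes the gel-forming mucin of these cells and Tff2 encodes a trefoil peptide that is stored and secreted with it. A4gnt encodes the enzyme that caps the O-glycans of this mucin with alpha1,4-linked N-acetylglucosamine, and Gkn3 encodes a gastrokine, a secreted protein with a BRICHOS domain. Surface and pit cells use a different set, with the mucin gene Muc5ac, the trefoil gene Tff1 and the gastrokine genes Gkn1 and Gkn2. Muc6 and Tff2 are also made by the mucous neck cells of the gastric corpus and by Brunner's glands of the duodenum.

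Embryos were taken at E18.5 from matings between Bapx1 CRE/+ heterozygotes, and yolk sac DNA gave their genotypes. The distal stomach was cut out with 1 to 2 mm of gut on each side of the pyloric narrowing, so each piece held stomach and the first part of the intestine. Single embryos were read on one-colour CodeLink mouse arrays, 3 labelled knockout and 3 labelled wildtype littermates. The leading digits of the animal codes join 1 knockout and 1 wildtype array into each of 3 litter pairs. The scanner headers name a project for both arrays of litter pair 1 (set A) and leave that field empty for the 4 arrays of pairs 2 and 3 (set B). They do not say that the arrays of set B were run together. Whatever that field stands for cannot be told apart from the litter between pair 1 and the others. The labels do not say what the CRE allele removes. The Nkx3-2 probe itself read 7.85 ± 0.16 in the knockout and 7.74 ± 0.26 in the wildtype arrays (SD, n = 3 each), so the transcript read by this probe was not lower in the arrays labelled knockout. The sources do not place this probe relative to the change in the gene, and a probe that lies outside the change checks nothing. Directions below therefore rest on the labels. In pieces of whole tissue, fewer gland cells and less RNA in each cell cannot be told apart. The number of arrays, 6 in all, limits the precision of every value.

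For genes with a promoter in the RefSeq table of build GRCm38.p6, which matched Muc6, Gkn3 and A4gnt, the 250 bases before the start site were read. Those of Muc6 and Gkn3 are shown because both genes have array values below and were lower together. Capitals mark the letters GATAA on either strand (TTATC where the match is on the other strand), the core bound by GATA factors, which include Gata4 and Gata6 of the gastric epithelium. The motif was chosen after these sequences had been seen. Each is written 5′ to 3′ on the gene's own strand. The Muc6 stretch lies at chr7:141655394-141655643 and the Gkn3 stretch at chr6:87388936-87389185, both on the minus strand.
Muc6: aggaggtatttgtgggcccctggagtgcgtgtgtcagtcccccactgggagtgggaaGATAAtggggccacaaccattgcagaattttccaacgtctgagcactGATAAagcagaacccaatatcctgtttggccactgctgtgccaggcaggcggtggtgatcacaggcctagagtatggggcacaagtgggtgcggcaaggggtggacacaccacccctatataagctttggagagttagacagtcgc
Gkn3: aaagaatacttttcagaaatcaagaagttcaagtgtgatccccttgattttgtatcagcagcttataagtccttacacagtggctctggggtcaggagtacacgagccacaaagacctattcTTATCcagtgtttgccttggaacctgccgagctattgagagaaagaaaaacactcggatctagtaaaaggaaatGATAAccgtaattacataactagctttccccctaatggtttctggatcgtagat

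The Muc6 stretch held 2 matches, whose last bases lay 189 and 142 bases before the start site, and the Gkn3 stretch held 2, at 124 and 50 bases. The A4gnt stretch held 1. Of 32851 promoter stretches of the same length, 22.6% held at least 1 match and 4.28% held at least 2. The surface cell genes Gkn1 and Gkn2 also held 2 each. The letters AAGTG or their complement CACTT, the core recognised by homeodomain proteins of the NK family, which includes Nkx3-2, occurred 1 time in each of Muc6, Gkn3 and A4gnt, and in 40.7% of all stretches at least 1 time. No match of one motif overlapped a match of the other in these 3 stretches. A match describes letters in this window and shows no binding.

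Tff2 read far above its local background on every array. Its net spot intensity, after subtraction of the local background, was 9336, 7488 and 7686 in knockout arrays 1, 2 and 3 and 31915, 15027 and 15582 in wildtype arrays 1, 2 and 3, against local backgrounds of 37 to 51. On the log2 normalized scale used below these were levels of 12.54, 12.99 and 13.24 in the knockout and 14.77, 14.26 and 14.20 in the wildtype arrays. Every knockout array was below every wildtype array. The mean level was 12.92 ± 0.36 against 14.41 ± 0.31 (SD, n = 3 each). This was a log2 difference of -1.49 (SE 0.25), which is 35.7% of the wildtype signal. The difference was -2.23 in litter pair 1, -1.27 in pair 2 and -0.96 in pair 3. The Tff2 spot of wildtype array 1 was flagged saturated, so its level there may be understated. With saturated spots left out the log2 difference was -1.31 (SE 0.25).

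Muc6 varied widely between litters. Its net spot intensity was 848, 2423 and 1672 in knockout arrays 1, 2 and 3 and 3169, 5449 and 3723 in wildtype arrays 1, 2 and 3. Its levels were 9.16, 11.37 and 11.10 in the knockout and 11.16, 12.88 and 12.21 in the wildtype arrays. The knockout array was the lower one in each litter, yet knockout array 2 read higher than wildtype array 1, so the labels overlapped when litters were ignored. The means were 10.54 ± 1.20 and 12.09 ± 0.87 (SD, n = 3 each). This was a log2 difference of -1.54 (SE 0.67), or 34.3% of the wildtype signal. By litter it was -2.0, -1.51 and -1.11. Knockout array 1 held the lowest Muc6 level of the 6 arrays, and without it the difference was -0.85.

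Gkn3 was also lower in the knockout array of each litter. Its net spot intensity was 11834, 13868 and 10617 in knockout arrays 1, 2 and 3 and 22432, 18724 and 17028 in wildtype arrays 1, 2 and 3. Its levels were 12.86, 13.84 and 13.69 in the knockout and 13.99, 14.49 and 14.31 in the wildtype arrays, with no overlap between the labels. The means were 13.46 ± 0.53 and 14.26 ± 0.25 (SD, n = 3 each). This was a log2 difference of -0.80 (SE 0.29), or 57.4% of the wildtype signal. By litter it was -1.13, -0.65 and -0.61, and without knockout array 1 it was -0.50.

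**Figure D1:**
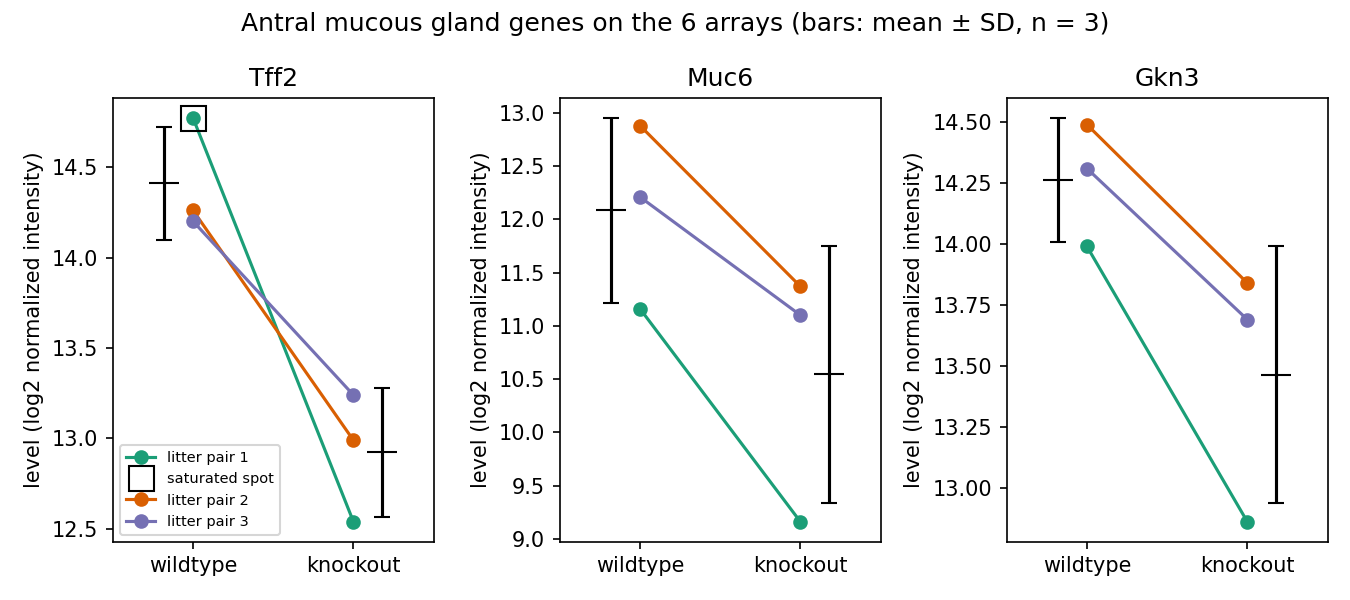
Level of Tff2, Muc6 and Gkn3 (log2 normalized intensity) in the wildtype and knockout array of each litter pair, joined by a line, with the mean ± SD of each label (n = 3) beside the points. The knockout array is the lower one in all 3 pairs for each gene, the labels overlap only for Muc6, and the square marks the saturated Tff2 spot of wildtype array 1.

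All 3 measured members were thus lower in the knockout array of every litter, where 11.6% of the 15667 genes with values in all litters were. For 2 of the 3 the labels did not overlap, where 1.52% of 16764 genes were lower in this way. Among all genes ordered from the lowest difference upwards, Muc6 ranked 5, Tff2 ranked 6 and Gkn3 ranked 34. Skeletal muscle genes held ranks 1, 3 and 4, namely Tnnc2 (-1.78), Mybpc1 (-1.54) and Mylpf (-1.54). In limma with Benjamini-Hochberg adjustment no gene was called between the labels (0.0% of 16764), so none of the 3 members was. Without adjustment, 189 genes (1.13%) had a p under 0.05. That count was 760 (4.53%) with the litter pair as a block and 978 (5.83%) with the project set as a block. Weighting the arrays by their scatter, in a fit that did not converge, called 677 genes (4.04%). These shares stand beside the members' counts only to give the scale, since the same contrast had been seen when the members were chosen. In set B alone, litter pairs 2 and 3, the log2 differences were -1.11 (SE 0.14) for Tff2, -1.31 (SE 0.24) for Muc6 and -0.63 (SE 0.13) for Gkn3, and again no gene was called. In a fit blocked on litter pair the differences were those given above and the SE was 0.25 for Tff2, 0.19 for Muc6 and 0.15 for Gkn3, and no gene was called.

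Each of the 3 genes had its largest difference in litter pair 1 and its smallest in pair 3. In litter pairs 1, 2 and 3 the knockout signal was 21.3%, 41.6% and 51.3% of that of its wildtype littermate for Tff2. The same shares were 25.0%, 35.0% and 46.2% for Muc6 and 45.6%, 63.6% and 65.4% for Gkn3. Whether the difference varied with the project set was tested with the interaction of label and set in limma, a measure that does not draw on the mean difference. Set A holds 1 array per label, so the spread came from set B alone and the arrays of set A were assumed to vary like them. For Tff2 the difference was 1.12 (SE 0.24) nearer to 0 in set B than in set A on the log2 scale (limma adjusted p = 0.356 over all genes). This value uses the saturated spot of wildtype array 1, and it was 0.69 (limma adjusted p = 0.567) on the deposited value table. For Muc6 it was 0.69 (SE 0.41, adjusted p = 0.655) and for Gkn3 0.50 (SE 0.23, adjusted p = 0.571). None of the 3 was called, where 7 of 15667 genes (0.0447%) were, and 9.5% of genes had an unadjusted p under 0.05 in this test.

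The level itself, averaged over both labels of a litter, followed different courses. For Tff2 the mean levels of litter pairs 1, 2 and 3 were 13.65, 13.62 and 13.72, and a difference between litters was not called (limma F test, adjusted p = 0.971). For Muc6 they were 10.16, 12.13 and 11.66, a range of 1.97, and the litters differed (F = 40.76, adjusted p = 0.013). For Gkn3 they ran from 13.42 in pair 1 to 14.16 in pair 2, and a difference was not called (adjusted p = 0.0601). Litter differences of this kind were common, with 22.7% of genes called. They were also called for Pgc, which is listed below with the other gland mucous cell genes, at 11.25, 13.14 and 13.52 (adjusted p = 0.01). The surface mucin gene Muc5ac was called as well, at 9.31, 10.29 and 10.16 (adjusted p = 0.0334). In set B alone the Muc6 levels of litters 2 and 3 had F = 7.52 (limma unadjusted p = 0.0282, adjusted p = 1.0), in a fit on 4 arrays that called 9 of 16045 genes (0.0561%).

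**Figure D2:**
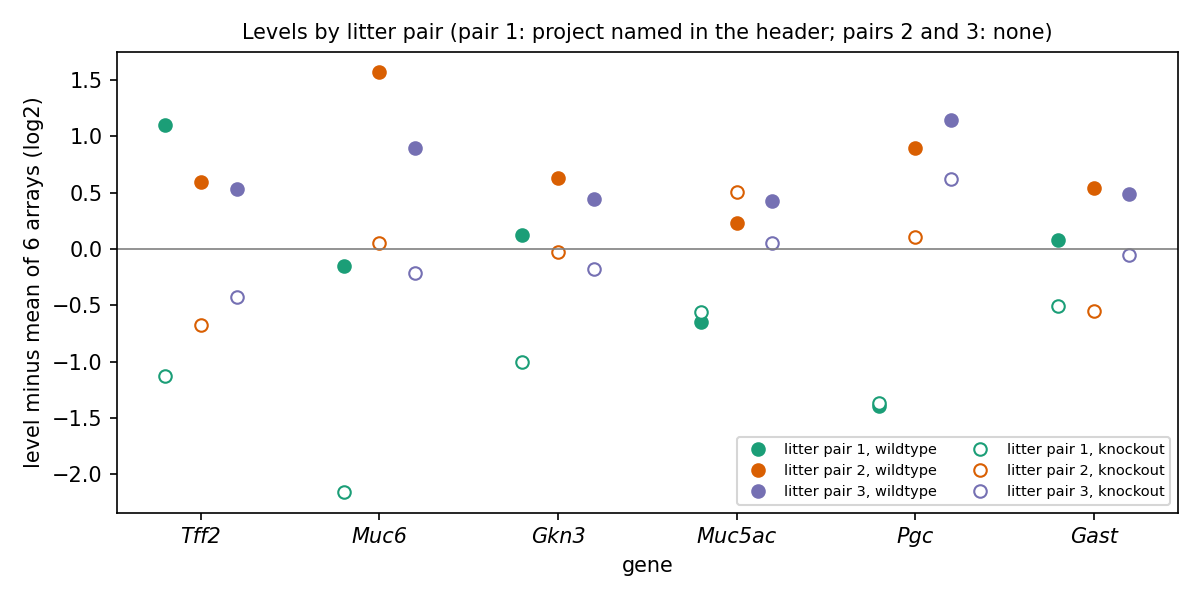
Level of each gene minus its mean over the 6 arrays (log2), by litter pair (colour) and label (filled for wildtype, open for knockout). Tff2 is split by label with litter means within 0.10 of each other. Muc6 and Gkn3 are lower in the knockout array of each litter, with the lowest litter mean in pair 1, and the labels overlap for Muc6. Muc5ac and Pgc are lowest in litter pair 1 with both labels together.

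Genes most like each member were sought by Pearson correlation of levels over the 6 arrays, among 6533 other genes with an SD of at least 0.3. These values are descriptions over 6 arrays that share litters, project sets and labels. Muc6 and Gkn3 followed each other closely, with r = 0.983, and each was among the 5 genes most like the other. The rest of that list for Muc6 was Pglyrp1, a peptidoglycan recognition protein (r = 0.986), Jakmip1 (0.984), Anxa1, annexin A1 (0.983), and the sialyltransferase gene St8sia6 (0.97). For Gkn3 it was Pglyrp1 (0.966), Ruvbl2 (0.959), Anxa1 (0.953) and St8sia6 (0.949). The 5 genes most like Tff2 were the sodium-potassium-chloride cotransporter gene Slc12a2 (0.956), Cyp4f15 (0.937), the chemokine gene Ccl20 (0.917), Zfp658 (0.872) and Prom1 (0.867). Gkn3 ranked 11 (0.793) and Muc6 ranked 30 (0.68) for likeness to Tff2. Once the mean of each litter was subtracted, Tff2 correlated at 0.991 with Muc6 and at 0.997 with Gkn3, while Muc5ac correlated at -0.162 with Tff2, at -0.155 with Muc6 and at -0.094 with Gkn3. After that subtraction only the 3 litter differences remain as separate values, so these correlations rest on 3 points that all lie on the same side for the members.

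Each measured member lies in a cluster of related genes, and no relative that was not saturated throughout a label was lower in all 3 litters. Tff2 is flanked on chromosome 17 by the other trefoil genes. Tff3, the trefoil gene of intestinal goblet cells, differed by -0.23 (SE 0.37), with -0.39, -0.61 and 0.31 in litter pairs 1, 2 and 3. It was saturated on 1 wildtype array, and with saturated spots left out the Tff3 difference was 0.08. Tff1 was saturated on all 6 arrays, so no difference is given for it. On chromosome 7 Muc6 lies beside the other gel-forming mucin genes. The goblet cell mucin gene Muc2 differed by -0.01 (SE 0.28), Muc5ac by 0.00 (SE 0.37) and Muc5b by -0.08 (SE 0.57). Muc5ac read 9.36, 10.42 and 9.97 in knockout arrays 1, 2 and 3 and 9.27, 10.15 and 10.34 in wildtype arrays 1, 2 and 3, so its labels overlapped. On chromosome 6 Gkn3 lies beside Gkn2 and Gkn1. Gkn2 was saturated on 3 knockout and 2 wildtype arrays, and no difference is given for it. Gkn1 was saturated on 1 array and differed by 0.12 (SE 0.24), with 0.66, 0.26 and -0.57 by litter.

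Of the 18 genes that lie within 3 protein-coding genes of Tff2, Muc6 or Gkn3, 17 were tested and 15 of those were not saturated throughout a label. Their log2 differences lay between -0.25 and 0.46 with a median of 0.04. In all 3 litters 2 were lower, Tmprss3 at -0.25 (SE 0.23) and Bmp10 at -0.21 (SE 0.18), and 2 were higher, Abcg1 at 0.27 (SE 0.18) and Ap2a2 at 0.46 (SE 0.19). At their other probes, of lower signal, Bmp10 differed by -0.01 and Ap2a2 by -0.21. None of the neighbours was called. Differences between a member and its neighbours were not tested, since the members were chosen on this contrast.

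**Figure D3:**
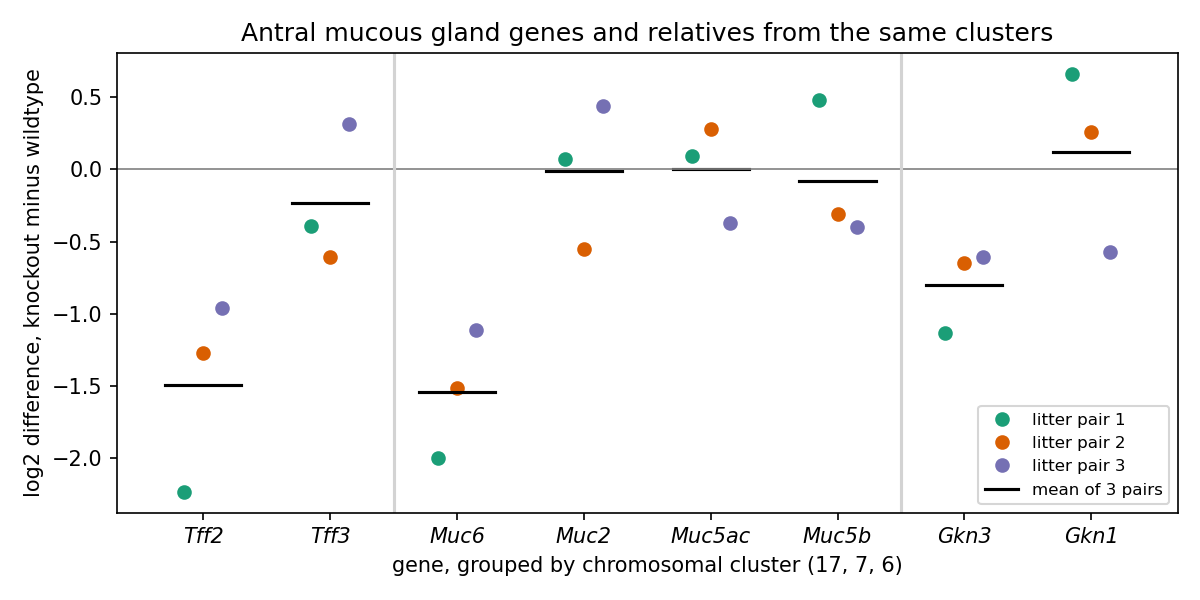
Log2 difference, knockout minus wildtype, in each litter pair (points) and fitted over all arrays (bar) for Tff2, Muc6 and Gkn3 and for relatives in the same chromosomal clusters that were not saturated throughout a label. The points of the 3 members lie between -2.23 and -0.61, and those of each relative lie on both sides of 0.

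The lists that follow were drawn up to place the members in their tissue, with earlier results of these arrays known, and are described by counts and medians. No gene of any list was called between the labels, as no gene was (0.0%). The median difference over all genes tested was -0.01, and 8696 of 16764 genes had a difference below 0.

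Other genes of gland mucous cells were 11, of which 10 were tested, with 7 lower, 3 higher and a median of -0.08. Wfdc2, a secreted protease inhibitor family member of mucous cells, differed by -0.57 (SE 0.26) and was lower in each litter, at -0.56, -0.36 and -0.80. Creb3l4, a transcription factor of secretory cells, differed by -0.57 (SE 0.26), at -0.37, -0.73 and -0.62 by litter. Agr2, a disulfide isomerase needed for mucin folding, had no value on wildtype array 1. It read 12.94, 11.83 and 11.84 in knockout arrays 1, 2 and 3 and 12.65 and 13.07 in wildtype arrays 2 and 3, a difference of -0.66 (SE 0.39) that mixes project sets and of -0.82 and -1.23 in litter pairs 2 and 3. Pgc, the progastricsin gene, differed by -0.43 (SE 0.78), with 0.03, -0.79 and -0.53 by litter.

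Surface and pit cell genes were 14, of which 12 were tested, 6 lower and 6 higher, with a median of 0.00. By litter the medians were 0.08, 0.20 and -0.42. The transmembrane mucin gene Muc1 differed by -0.42 (SE 0.40), Vsig1 by -0.29 (SE 0.40) and Sult1c2 by -0.23 (SE 0.30). Among the other 9 mucin genes, all of them tested, 5 were lower and 4 higher. Muc4, a transmembrane mucin, differed by -0.47 (SE 0.17), with -0.35, -0.30 and -0.77 by litter, but by 0.01 at its other probe, of lower signal. Muc13, a transmembrane mucin of enterocytes, differed by 0.49 (SE 0.30), with -0.46, 1.18 and 0.77 by litter.

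Enzymes that build O-glycans, the class to which A4gnt belongs, were 20, of which 19 were tested, with 13 lower, 6 higher and a median of -0.09. Of the 17 with values in all litters 5 were lower in each. Gcnt3, which makes the branched core structures that A4gnt caps, had no value on wildtype array 1. It read 12.78, 13.28 and 13.20 in knockout arrays 1, 2 and 3 and 13.93 and 13.93 in wildtype arrays 2 and 3, a difference of -0.84 (SE 0.21) that mixes project sets. In litter pairs 2 and 3 it was -0.65 and -0.73. With flagged spots kept it was -0.49, and its other probe, of lower signal, differed by -0.25. Galnt6, an initiating enzyme, differed by -0.47 (SE 0.25), but by 0.07 at its other probe, of lower signal. The sialyltransferase gene St3gal1 differed by 0.42 (SE 0.21), and by 0.03 to 0.84 at its other probes.

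Regulators of the antral epithelium were 12, all tested, with 8 lower, 4 higher and a median of -0.05. Foxa3, a forkhead factor of gut epithelium, read 8.14, 8.80 and 8.82 in knockout arrays 1, 2 and 3 and 8.89, 9.28 and 9.59 in wildtype arrays 1, 2 and 3, a difference of -0.67 (SE 0.27) with no overlap between the labels. Spdef, a factor of mucous and goblet cell maturation, differed by -0.76 (SE 0.46), at -0.66, -0.38 and -1.23 by litter. Gata6 differed by 0.63 (SE 0.32), with -0.09, 1.46 and 0.53 by litter, and by -0.03 at its other probe. Sox2, a stomach epithelial factor, was near background on 2 arrays and differed by 0.02 (SE 0.19). Pdx1, a factor of the antrum and duodenum, was near background on 3 arrays and differed by -0.21 (SE 0.15), or by -0.91 in the deposited value table, so its size is uncertain.

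Endocrine genes of the antrum were 11, all tested, with 9 lower, 2 higher and a median of -0.14. Gast, which encodes the hormone gastrin of antral G cells, read 10.79, 10.74 and 11.24 in knockout arrays 1, 2 and 3 and 11.37, 11.83 and 11.78 in wildtype arrays 1, 2 and 3. The labels did not overlap, and the difference was -0.74 (SE 0.21), with -0.58, -1.09 and -0.54 by litter. Nkx6-3, a factor of antral endocrine and gland cells, differed by -0.18 (SE 0.15), and Pax4 by -0.14 (SE 0.14).

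Genes common to all epithelium were 11, of which 10 were tested, with 7 lower, 3 higher and a median of -0.04. By litter their medians were -0.20, 0.03 and -0.01. Krt19, a keratin of simple epithelium, differed by -0.18 (SE 0.18) and the claudin gene Cldn7 by 0.17 (SE 0.20). Elf3 had no value on knockout array 2 and differed by -0.34 (SE 0.41), with -0.95 and -0.52 in litter pairs 1 and 3. The differences of the list ran from -0.34 to 0.32. Relative to the epithelial median of the same litter, the Tff2 difference was -2.03, -1.29 and -0.96 in litter pairs 1, 2 and 3. This relative difference was -1.80, -1.54 and -1.11 for Muc6 and -0.93, -0.68 and -0.60 for Gkn3. Set against the median of the other gland mucous cell genes, it was -2.09, -1.02 and -0.51 for Tff2. On that measure it was -1.86, -1.27 and -0.66 for Muc6 and -0.99, -0.41 and -0.16 for Gkn3. Set against surface and pit cell genes it was smallest in pair 3, at -0.55 for Tff2, -0.70 for Muc6 and -0.20 for Gkn3.

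**Figure D4:**
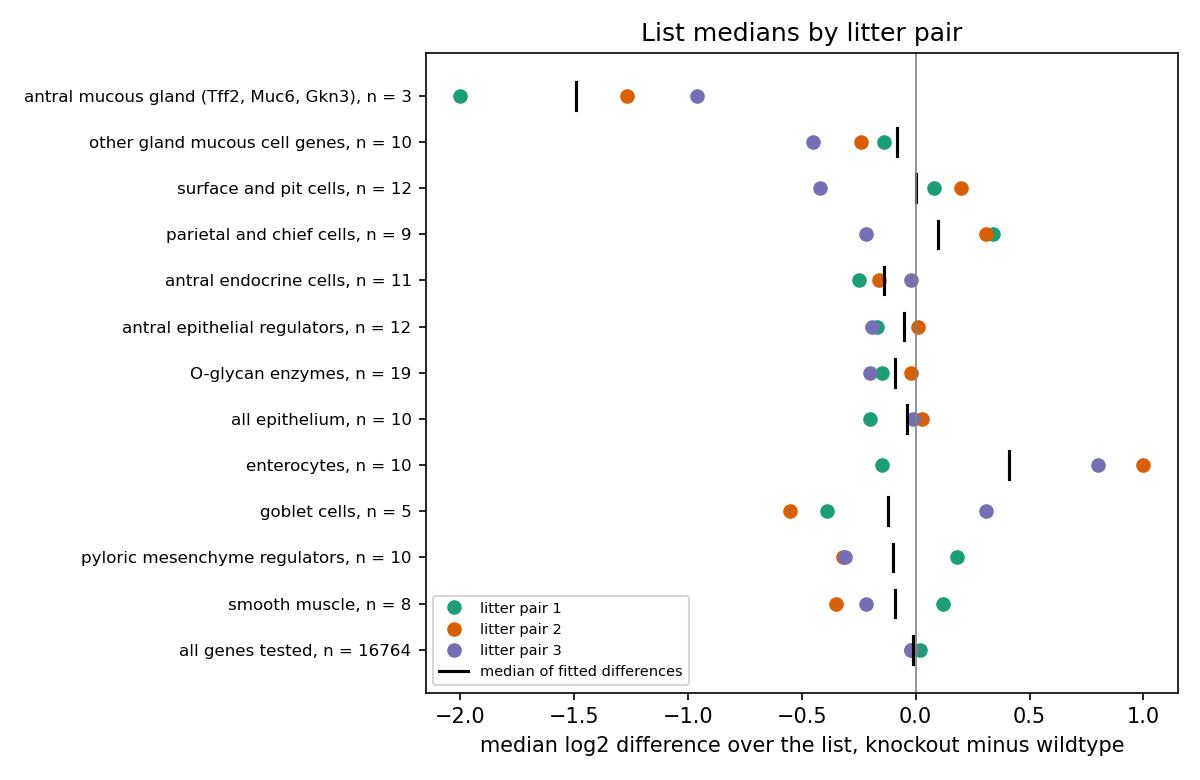
Median log2 difference, knockout minus wildtype, over the tested genes of each list drawn, with the number of genes tested. Points are litter pairs and the bar is the fit over all arrays. Not every list is drawn, and skeletal muscle (median -1.28) and liver (median 0.92) are among those left out. The 3 antral mucous gland genes stand at -2.0, -1.27 and -0.96, the medians of epithelium lie between -0.20 and 0.03, and enterocyte genes are at -0.15 in litter pair 1 and at 1.00 and 0.80 in pairs 2 and 3.

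Marker lists of other tissues in the pieces also moved between arrays. Enterocyte genes were higher in 10 of 10 tested, with a median of 0.41 and medians of -0.15, 1.00 and 0.80 by litter. Their centred median level lay between 0.13 and 0.33 in the knockout and between -0.54 and 0.41 in the wildtype arrays. The cadherin gene Cdh17 differed by 0.61 (SE 0.23) and the meprin gene Mep1b by 0.75 (SE 0.31). In litter pair 1, where the 3 members differed most, the median was -0.15 for enterocyte genes and 2.58 for liver genes. Goblet cell genes were lower in 4 of 5, with a median of -0.12. The exception was Zg16, a secreted goblet cell lectin, which had the highest difference of the 16764 genes in the fit, at 1.78 (SE 1.21), with 0.59, 1.59 and 3.17 by litter and overlap between the labels. Exocrine pancreas genes were lower in 5 of 7, with centred levels of -0.54 to 0.59 in the knockout and -0.48 to 1.23 in the wildtype arrays. Squamous forestomach genes were lower in 6 of 7, with centred levels of -0.11 to 0.03 and -0.06 to 0.13. Parietal and chief cell genes were higher in 6 of 9, with a median of 0.10. Skeletal muscle genes were lower in 6 of 7, each in all 3 litters, with a median of -1.28 and centred levels of -1.60 to 0.43 and -0.11 to 1.69. Liver genes were higher in 7 of 7, with medians of 2.58, 0.03 and -0.22 by litter. Smooth muscle had a median of -0.09 and pyloric mesenchyme regulators -0.10. The part of tissue content in the differences of Tff2, Muc6 and Gkn3 was not tested.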

How the data were processed

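The authors deposited scanner exports of CodeLink Expression Analysis with spot mean and local background intensity, not normalized, and intensity divided by the array median, a median normalization per the file headers of litter pair 1. The deposited value table holds intensity on that linear scale, with column medians of 0.997 to 1.00. The sources give no genome build. Probes were named through the platform annotation, updated by gene ID with RefSeq symbols (22114 of 34967 gene probes had 1 symbol, 681 several and 12172 none).

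Spot means were background-corrected with limma's normexp (offset 50), quantile normalized across the gene probes, then put on a log2 scale. Masked, irregular or contaminated spots, 0.418% to 3.34% per array, were set missing. A gene was tested at its probe of highest mean signal if at least 3 arrays were above background and each label had at least 2 values. Median signal above background was 207 and 204 in knockout and wildtype array 1 (set A) and 109 to 131 in set B. Local backgrounds were 38 to 46. Saturated probes numbered 145 and 113 in set A and 55 to 69 per array in set B. In set A 16.7% of probes on each array were near background, against 13.2% to 14.5% in set B. Groups were compared with limma 3.58.1 in R 4.3.3 without a block, at an adjusted p of 0.05 (Benjamini-Hochberg). Tests of litter level (an F test beside the label) and of label by project set were adjusted over all genes. The steps were also run on simulated data. Values simulated for the label comparison held no litter differences, unlike those of the arrays. That run therefore does not show how the fit without a block performs here. The litter digits were treated as pairing the arrays. Samples with the same digits deviated together from their label means (r = 0.784, 0.409 and 0.576). A difference between the project sets alone would also make them deviate together. The same correlation was not computed for arrays of different litters. This check therefore cannot tell the litter from the project set. Nothing in the labels joins 2 arrays to 1 embryo.

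Named genes are the members, Nkx3-2, Muc5ac, Pgc, Gast, Pdx1, Sox2, from each list the 3 genes of largest absolute moderated t and the 5 genes most like each member. Some of these are not printed, and the chromosomal neighbours were added after values were seen. Members and lists were chosen with earlier results of these data known. Alternatives covered background correction, scaling, the value table, blocks, litter pairs 2 and 3 alone, array weights, flags, the signal filter, and left-out arrays and litters.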

Additional observations from a re-analysis of the deposited data

How the results depend on the processing

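The log2 differences of Tff2, Muc6 and Gkn3 stayed below 0 under all 22 alternatives, and all 3 were lower in every litter present, except that Tff2 had no value in litter pair 1 once saturated spots were left out, which made the count 2. Over corrections, scalings, blocks, litter pairs 2 and 3 alone and array weights they ran from -1.49 to -1.06 for Tff2, -1.59 to -1.19 for Muc6 and -0.80 to -0.63 for Gkn3. Tff2 moved by more than its spread in pairs 2 and 3 alone (-1.11) and with array weights (-1.06). Over left-out arrays or litters the values ran from -1.75 to -1.11 for Tff2, from -2.0 (without wildtype array 1) to -0.85 (without knockout array 1) for Muc6 and from -0.99 to -0.50 for Gkn3. The 22 alternatives were not independent. Leaving out litter pair 1 gives the same fit as pairs 2 and 3 alone, and blocks leave the members' differences unchanged. For Tff2 and Gkn3, whose labels did not overlap, leaving out arrays could not change the sign. The number of genes called was 0 under every alternative except array weights, which called 677 (4.04%) in a fit that stopped before convergence. With the litter pair as a replicate block it was 0, and 0 to 0 over left-out arrays. The litter test called 1 member with all arrays, 0 in pairs 2 and 3 alone, and 0 to 2 over left-out arrays or litters. The number of all genes it called moved too, from 9 of 16045 in pairs 2 and 3 alone to 5731 of 15992 without litter pair 2, where it called Muc6 and Gkn3. The interaction test called 0 members in each alternative that allowed it. Leaving out saturated spots was added after the data were seen. Each member has 1 probe, so another probe could not be tried. Of 2174 values of other genes and lists under alternatives, 52 moved by more than their spread and 140 took the other sign. Saturation limits Tff1 and Gkn2, and signal near background limits Pdx1.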
